A study of Rattus norvegicus with 3 samples.

Results

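Core spliceosome genes were taken as the named genes of a rat whole-transcript array whose symbol marks a protein of the small nuclear ribonucleoprotein particles (snRNPs), of their Sm and LSm rings, of the splicing factors SF3A, SF3B, U2AF and PRPF, or of a short set of minor spliceosome and activation factors. The rule found 57 genes among 15037 named genes. The arrays came from FRSK cells, which are keratinocytes of fetal rat skin kept as a line, with 1 array for cells given Met-enkephalin (Met-ENK), 1 for cells given β-END(1-9), a fragment of β-endorphin, and 1 for unstimulated control cells. Each peptide was given at 100 nM for 24 h, and the sources used here do not say what the control dish received over that time. Because each group has 1 array, no difference below has a replicate check, no test between groups was possible, and every statement compares single arrays.

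The spliceosome removes introns from pre-mRNA. The snRNAs U1, U2, U4 and U5 carry a ring of small Sm proteins and U6 carries a ring of the related LSm proteins. U1 marks the start of an intron, U2 with SF3A and SF3B holds the branch site, U2AF binds the intron end, and the U4/U6.U5 tri-snRNP brings in the large proteins that rearrange the particle into its active form. A minor spliceosome with U11 and U12 removes a rare class of introns. The rule goes by symbol and so also takes in relatives that serve elsewhere, such as Lsm10 and Lsm11 of the U7 particle for histone mRNA ends, Lsm1 of cytoplasmic mRNA decay and the mRNP protein Lsm14a.

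The arrays were alike in overall level, with median log2 signals of 5.96 for Met-ENK, 5.97 for β-END(1-9) and 5.93 for control over 23188 transcript clusters. The 23 background probe sets ran from 2.51 to 7.57 and had the same lowest and highest value on all 3 arrays. All 7 measured keratinocyte markers of 13 listed lay above that range, with Krt14 at 16.61 with Met-ENK, 16.63 with β-END(1-9) and 16.70 in control. The number above it on every array was 2 of 6 for fibroblast, 1 of 3 for melanocyte, 1 of 4 for immune and 0 of 4 for endothelial markers. Relative to the control array, the median of the 399 positive control probe sets was shifted by -0.23 with Met-ENK and by -0.12 with β-END(1-9). The median of the 1153 negative control probe sets was shifted the other way, by 0.09 with Met-ENK and by 0.03 with β-END(1-9).

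Of the 57 genes, 53 passed the level filter, a mean log2 signal over the 3 arrays at or above the median of all named genes (6.41). Lsm1, Prpf40b, Sf3b4 and Snrpc did not pass. Signals lay within the background range on all 3 arrays for these 4 genes and for Lsm10, Lsm11 and Snrnp35, and Zcrb1 entered it on the Met-ENK array alone. The other 49 genes were above it throughout. Exactly equal signals were frequent in the deposited values as a whole. On the Met-ENK and control arrays 4039 of 15037 named genes had 1 value. Among the 57 genes 10 did so, and 6 had 1 value on all 3 arrays.

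With Met-ENK, 12 of 15 ring genes passing the filter had lower signals than in control cells, and 11 of 17 genes for large factors had higher ones, by at most 0.22 on the log2 scale. Among 53 genes passing the filter, 7 were at least 1.5-fold lower with Met-ENK (0.58 on the log2 scale) and 0 were at least 1.5-fold higher. The background was 6.02% lower and 0.692% higher over 7519 genes passing the same filter. The 7 genes were Zcrb1, Ppil1, Lsm10, Snrpd2, Lsm2, Snrpg and Bud31. Lsm10 lay within the background range on every array and passed the filter only through its control signal, and without it 6 of 52 were lower. Over all 53 the median difference was -0.11, with 29 below 0, 16 above 0 and 8 at exactly 0. Over all 7519 genes the median was 0, with 45.7% below 0 and 32.7% above it. After quantile normalization the medians were -0.01 for the members and 0.06 over all genes. Of all 57 genes measured, 8 were at least 1.5-fold lower, beside 4.21% of all 15037 named genes without the filter. The addition was Snrpc, whose signals lay within the background range on every array. On the β-END(1-9) array the difference from control was smaller. There 2 of 53 genes, Zcrb1 and Lsm10, were at least 1.5-fold lower and 0 higher, against a background of 2.27% lower and 0.559% higher. Without Lsm10 this was 1 of 52. The median of the 53 was -0.06, against -0.03 over all genes. These 2 comparisons share the control array, so their values are given side by side and not as separate evidence.

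**Figure D1:**
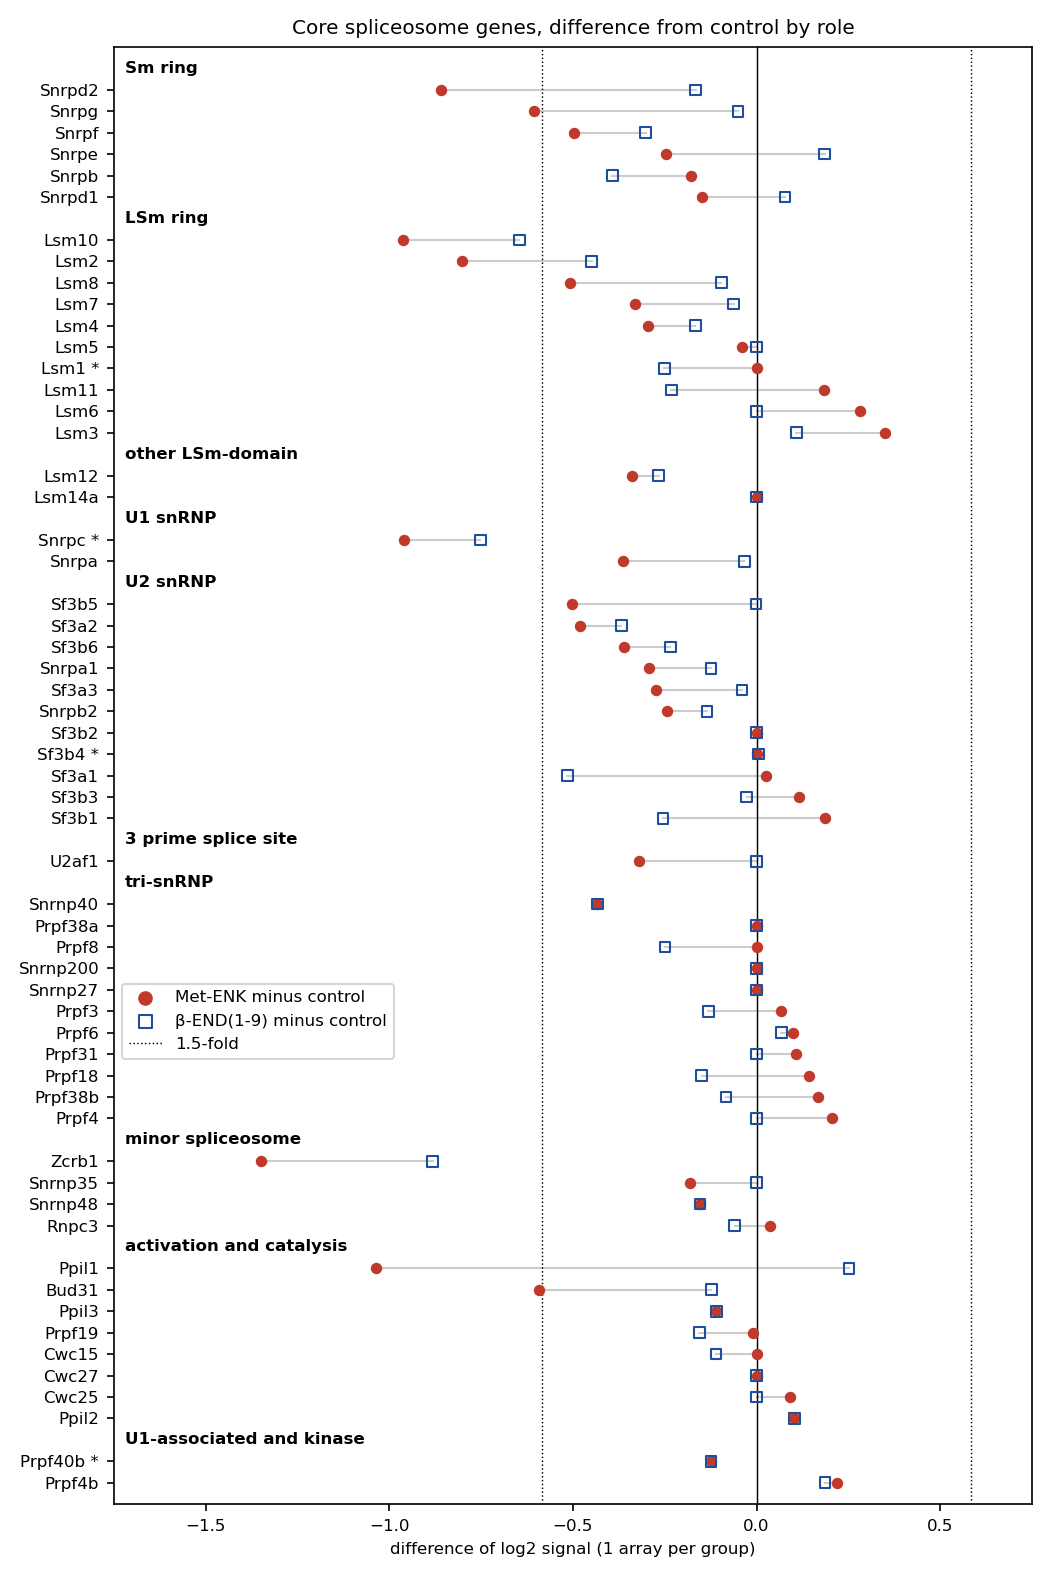
Difference of log2 signal from the control array for each of the 57 genes, grouped by role, with Met-ENK as filled circles and β-END(1-9) as open squares; dotted lines mark 1.5-fold and an asterisk marks the 4 genes that did not pass the level filter. All points past a dotted line lie on the lower side, and Zcrb1, at -1.35 and -0.88, lies furthest out with each peptide, the first value resting on a signal within the background range.

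The Sm ring genes were all lower with Met-ENK than in control, 6 of 6 measured, with a median difference of -0.37. Of all genes passing the filter 45.7% were lower in that comparison, and of those with a span under 10 kb 60.0%. Snrpd2, which encodes Sm protein D2, had log2 signals of 12.40 with Met-ENK, 13.09 with β-END(1-9) and 13.26 in control, differing from control by -0.86 on the first and -0.17 on the second. Snrpg (Sm protein G) had 11.47, 12.02 and 12.07 in the same order, differing by -0.60 and -0.05. For both genes the Met-ENK array was low and the other 2 arrays lay close together. Snrpf (Sm protein F) had 9.61 with Met-ENK, 9.81 with β-END(1-9) and 10.11 in control. Snrpe (protein E) had 11.15, 11.58 and 11.40, and Snrpd1 (protein D1) had 11.75, 11.98 and 11.90 in that order. In Snrpe and Snrpd1 the β-END(1-9) array was the highest of the 3. Snrpb (protein B) had 11.66, 11.44 and 11.84, with its lowest signal on the β-END(1-9) array. Against control, the β-END(1-9) array had 4 of the 6 genes lower, 2 higher and 0 past 1.5-fold, with a median of -0.11. Of all genes 56.1% were lower there, 18.8% higher and 2.27% at least 1.5-fold lower. Between the peptides, 5 of 6 were lower with Met-ENK, and Snrpd2 was past 1.5-fold (-0.69). Over all genes 33% were lower in that comparison and 2.7% at least 1.5-fold lower. Snrpd3 and Snrpn were not analysed here.

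The LSm genes were divided. Of the 9 that passed the filter, 6 were lower with Met-ENK than in control and 3 were higher, with a median of -0.30. Over all genes passing the filter 45.7% were lower and 32.7% higher, so the share of higher LSm genes was close to that of all genes. Among all genes with a span under 10 kb 60.0% were lower and 20.3% higher. Lsm2, a member of both the U6 ring and the cytoplasmic decay ring, had 10.96 with Met-ENK, 11.31 with β-END(1-9) and 11.76 in control, differences of -0.80 and -0.45. Lsm8, which marks the nuclear U6 ring, had 8.71, 9.12 and 9.22, differing from control by -0.51 and -0.10. The first stayed below 1.5-fold. Lsm7 differed by -0.33 and Lsm4 by -0.30 with Met-ENK. Lsm5, the ring gene of the U6 particle with the highest mean signal, had 12.16 with Met-ENK and 12.20 on both other arrays. Lsm3 went the other way, with 9.42 with Met-ENK, 9.18 with β-END(1-9) and 9.07 in control, and so did Lsm6, with 8.83, 8.55 and 8.55. Lsm3 and Lsm6 thus had their highest signal on the Met-ENK array although they belong to the same ring as Lsm2 and Lsm8. Lsm10, of the U7 particle, had 6.12 with Met-ENK, 6.44 with β-END(1-9) and 7.08 in control, past 1.5-fold with each peptide (-0.96 and -0.65). Its U7 partner Lsm11 had 7.45, 7.03 and 7.26. All signals of Lsm10 and Lsm11 were within the background range, so their levels cannot be told from background. Lsm1, of the decay ring, had 5.57 with Met-ENK and in control and 5.32 with β-END(1-9), also within that range. Outside the rings, Lsm12 had 13.59, 13.67 and 13.93 on the Met-ENK, β-END(1-9) and control arrays, and Lsm14a had 12.16 on all 3.

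**Figure D2:**
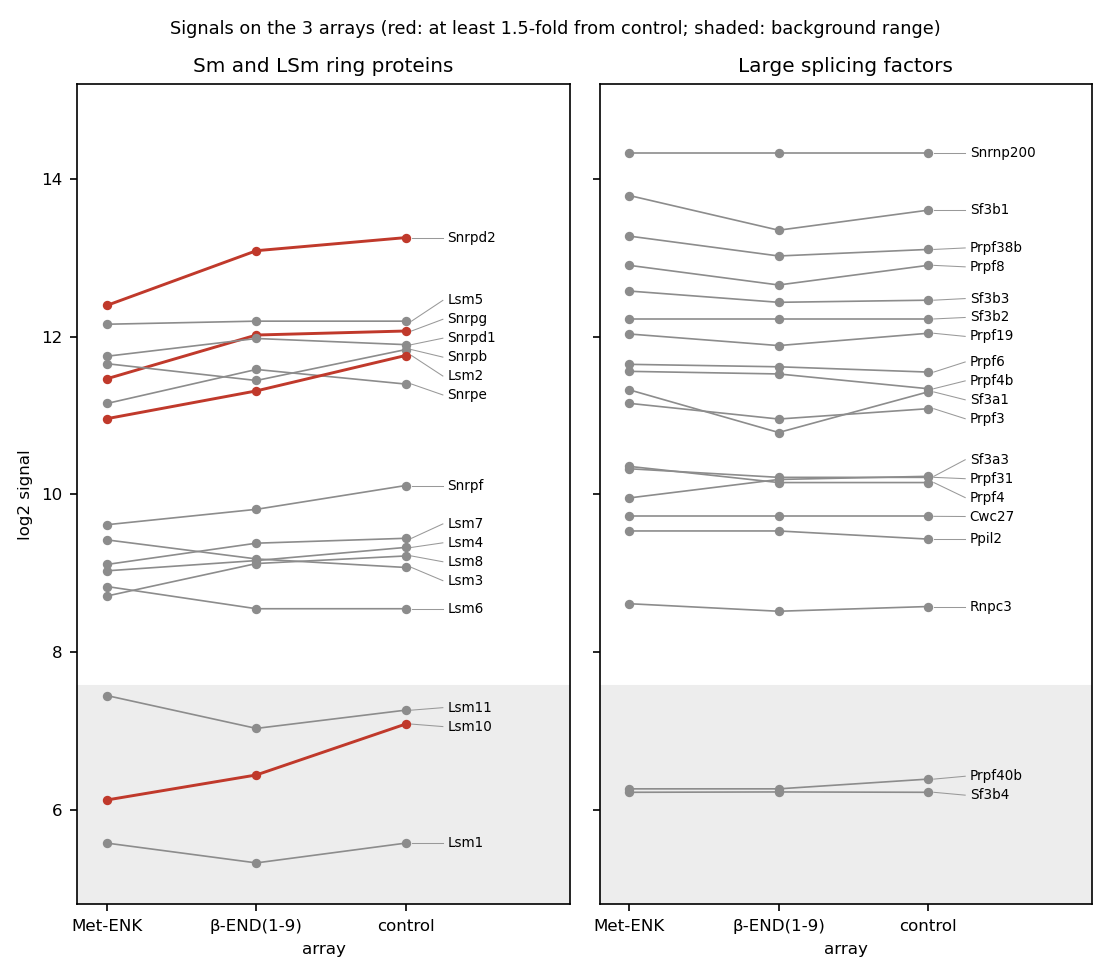
Log2 signal on the Met-ENK, β-END(1-9) and control arrays for the 16 ring genes measured (left) and the 19 large factors measured (right), 1 line per gene and 1 point per array; red lines are genes at least 1.5-fold from control and the shaded band is the range of the background probe sets. Red lines occur among the ring genes (Snrpd2, Snrpg, Lsm2 and Lsm10), and none among the large factors, where Sf3a1 (-0.52) and Sf3b1 (-0.26) dip on the β-END(1-9) array.

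The difference between small and large proteins was set out with a pair of lists, the ring genes and a list of large factors such as Sf3b1, Prpf8 and Snrnp200. With Met-ENK against control, 12 of 15 ring genes passing the filter had lower signals and 3 had higher ones. Of the 15, 4 were past 1.5-fold lower, or 3 of 14 without Lsm10. Over all genes passing the filter 45.7% were lower, 32.7% higher and 6.02% at least 1.5-fold lower. For those with a span under 10 kb these shares were 60.0%, 20.3% and 12.7%. For the 17 large factors passing the filter, 2 were lower, 11 were higher and 4 were equal, with 0 past 1.5-fold in either direction. This split depends on the scaling, with 11 higher and 6 lower after median centring and 16 higher and 1 lower after quantile normalization. The medians were -0.30 for the ring genes and 0.07 for the large factors, a gap of -0.36. Between Met-ENK and β-END(1-9) the medians were -0.23 and 0.11 in the same order, and 11 of 15 ring genes against 1 of 17 large factors were lower with Met-ENK. In the background 33% of all genes passing the filter were lower in that comparison. After quantile normalization the large factors lower were 7 of 17 and the ring genes 11 of 15. Between β-END(1-9) and control the lists were closer, with medians of -0.10 and -0.03, the second of which changed sign after quantile normalization (0.05). There 10 of 15 ring genes and 9 of 17 large factors were lower, beside 56.1% of all genes, of which 18.8% were higher. After quantile normalization the counts were 8 of 15 ring genes and 5 of 17 large factors lower, with 12 large factors higher. The 21 remaining members passing the filter had medians of -0.29 (Met-ENK) and -0.11 (β-END(1-9)) against control. The first was thus close to that of the ring genes. Members of 1 comparison share the same pair of arrays and are not replicates, and no test of the gap between the lists was made.

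**Figure D3:**
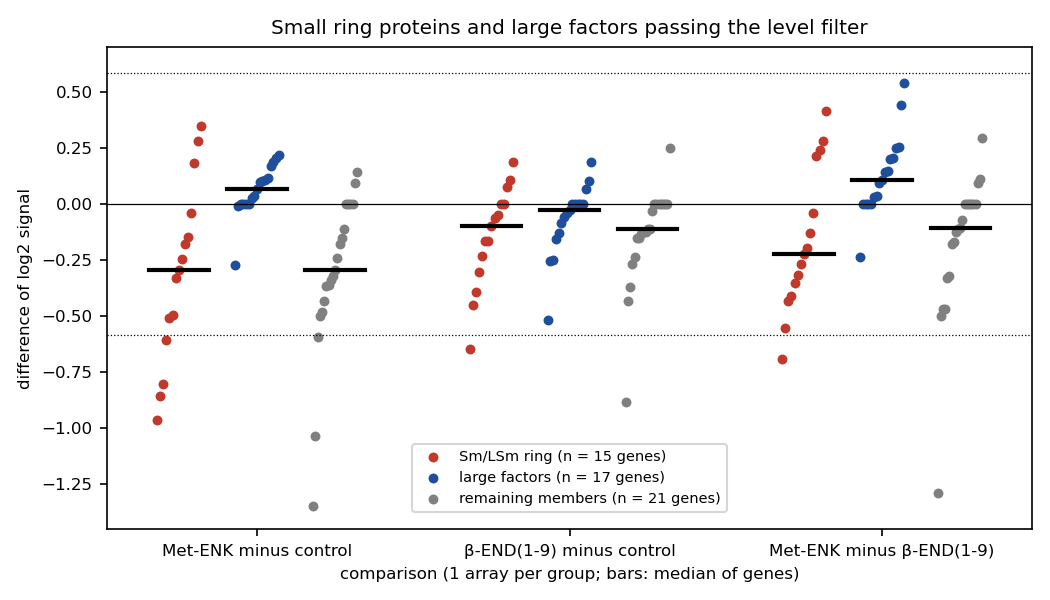
Difference of log2 signal in the 3 comparisons for ring genes (red, 15), large factors (blue, 17) and remaining members (grey, 21) that passed the filter, 1 point per gene, with a bar at the median and dotted lines at 1.5-fold. With Met-ENK the ring genes spread from -0.96 to 0.35 and the large factors from -0.27 to 0.22, and with β-END(1-9) against control the medians of the lists lie closer together.

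Most U1 and U2 genes that passed the filter were lower with Met-ENK, and the exceptions were large subunits of SF3A and SF3B. Snrpa, the U1 protein that binds a stem-loop of the snRNA, had 11.04 with Met-ENK, 11.37 with β-END(1-9) and 11.40 in control. Snrpc, the U1 protein that helps to hold the 5′ splice site, had 5.66, 5.86 and 6.61, differences of -0.96 and -0.75 at signals within the background range. The U1 70K gene Snrnp70 was not analysed here. Of the 10 U2 genes passing the filter, 6 were lower with Met-ENK, 3 higher and 1 equal, with a median of -0.26 and 0 past 1.5-fold. Over all genes passing the filter 45.7% were lower, 32.7% higher and 6.02% at least 1.5-fold lower, so the U2 counts were not far from these shares. The lower ones included Sf3b5, a short SF3B subunit, with 10.93 with Met-ENK and 11.43 on both other arrays. Sf3a2, a subunit of SF3A, had 9.21, 9.32 and 9.69 on the Met-ENK, β-END(1-9) and control arrays. Snrpa1 and Snrpb2, which bind the U2 snRNA together, differed by -0.29 and -0.24 with Met-ENK. Sf3a3, which is on the list of large factors, was also lower, with 9.95 with Met-ENK, 10.19 with β-END(1-9) and 10.23 in control. The higher ones were the large subunits Sf3b1, which clamps the branch site, Sf3b3 and Sf3a1. Sf3b1 had 13.79 with Met-ENK, 13.35 with β-END(1-9) and 13.61 in control, a difference between the peptides of 0.44. Sf3b3 had 12.58, 12.44 and 12.46. Sf3a1 differed by 0.03 with Met-ENK and by -0.52 with β-END(1-9), the lowest β-END(1-9) value among the large factors. Sf3b2 had 12.22 on all 3 arrays, and Sf3b4 had 6.22 on each, within the background range. U2af1, the U2AF subunit that reads the AG at the intron end, had 13.09 with Met-ENK and 13.41 on both other arrays. Its partner U2af2 was not analysed here.

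Of 11 tri-snRNP genes measured, 6 were above control with Met-ENK, 4 equal to it and 1 below, with a median of 0.07 and a range of -0.43 to 0.21. Over all genes 32.7% were above and 45.7% below, and the split of the 11 was 6 above and 5 below after median centring and 10 above and 1 below after quantile normalization. Prpf8, the scaffold at the active site, had 12.91 with Met-ENK, 12.66 with β-END(1-9) and 12.91 in control. Snrnp200, the helicase that unwinds U4 from U6, had 14.33 on all 3 arrays. Prpf4, a U4/U6 protein, had 10.35 with Met-ENK and 10.15 on both other arrays, and Prpf38b had 13.28, 13.02 and 13.11 on the Met-ENK, β-END(1-9) and control arrays. The exception below control was Snrnp40, the WD-repeat protein of U5, with 8.44 with either peptide and 8.87 in control. Between the peptides 7 of 11 were higher with Met-ENK and 0 were lower, up to 0.29 for Prpf18, which acts late in splicing. In the background 45.4% of genes were higher and 33% lower in this comparison. The split was 6 higher and 5 lower after quantile normalization, so that it depends on the scaling. The kinase Prpf4b, which phosphorylates tri-snRNP proteins, had 11.56 with Met-ENK, 11.53 with β-END(1-9) and 11.34 in control. Prpf40b, a U1-associated protein, had 6.26 with either peptide and 6.39 in control, within the background range.

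In the minor spliceosome 1 gene stood out and the rest did not. Zcrb1, an RNA-binding protein of the U11/U12 particle, had 7.24 with Met-ENK, 7.71 with β-END(1-9) and 8.59 in control. It was 1.84-fold lower with β-END(1-9) (-0.88), the lowest difference of the 57 genes, with both signals above background. The β-END(1-9) signal of 7.71 was only just above the background top of 7.57, so this size is uncertain too. The difference with Met-ENK was -1.35, but that signal lay within the background range, so the size of the difference is uncertain. Other proteins of the same particle differed far less. Rnpc3, which binds the U12 snRNA, had 8.61, 8.52 and 8.58 on the Met-ENK, β-END(1-9) and control arrays. Snrnp48 had 9.40 with either peptide and 9.55 in control, and Snrnp35, a relative of the U1 70K protein, had 6.40, 6.58 and 6.58. Pdcd7 and Snrnp25 were not analysed here.

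Among 8 measured genes of activation and catalysis, 2 were at least 1.5-fold lower with Met-ENK, beside 6.02% of all genes. Ppil1, a prolyl isomerase of the activated spliceosome, had 8.93 with Met-ENK, 10.21 with β-END(1-9) and 9.96 in control. It was 2.05-fold lower with Met-ENK than in control (-1.04), 0.25 higher with β-END(1-9), and 2.44-fold lower with Met-ENK than with β-END(1-9) (-1.29). Its Met-ENK array was low and the β-END(1-9) array was the highest of the 3, with every signal above background. Bud31, another protein of the activated particle, had 10.94, 11.41 and 11.53 in the same order, a difference of -0.59 with Met-ENK that lay just past the 1.5-fold limit and of -0.12 with β-END(1-9). The ubiquitin ligase Prpf19 had 12.03, 11.89 and 12.04 on the Met-ENK, β-END(1-9) and control arrays. Cwc15 differed by 0 and -0.11 with Met-ENK and β-END(1-9), and Cwc25, a factor of the first catalytic step, by 0.09 and 0. The isomerases Ppil2 and Ppil3 had equal signals on the peptide arrays and differed from control by 0.10 and -0.11. Between Met-ENK and β-END(1-9), Ppil1 and Snrpd2 were the genes at least 1.5-fold lower among the 53 and 0 were at least 1.5-fold higher, against a background of 2.7% lower and 1.89% higher.

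Genes of the ring proteins are short, and the difference of the members went with the length of the gene. The genomic span, from gene start to gene end, had a median of 7.15 kb for the 16 ring genes, 24.4 kb for the 19 large factors and 17.8 kb for all named genes. Across the 53 members, which share the same arrays, the Met-ENK difference and the span had a Spearman correlation of 0.52 (Pearson 0.39 with log span), given as a description. Over all genes passing the filter with a span, 7516, the same value was 0.27. For β-END(1-9) against control it was 0.20 over the members and 0.00 over all genes. Among members with a span under 10 kb, 4 of 18 were at least 1.5-fold lower with Met-ENK, beside 12.7% of all genes that short. Among members over 20 kb this was 1 of 19 (Ppil1), beside 2.8% of all genes that long. With the trend along span taken out, the gap between the medians of ring genes and large factors with Met-ENK was -0.26, and 5 members remained at least 1.5-fold lower. Zcrb1, with a span of 13.3 kb, then differed by -1.29 and Ppil1 stayed past 1.5-fold, while Snrpg (-0.51) and Bud31 (-0.50) no longer reached 1.5-fold. The part of gene length, and of whatever shifted the positive and negative control probe sets, in the Met-ENK values was not tested. Several Sm genes also have near-identical copies in the genome, and cross-hybridisation was not tested.

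**Figure D4:**
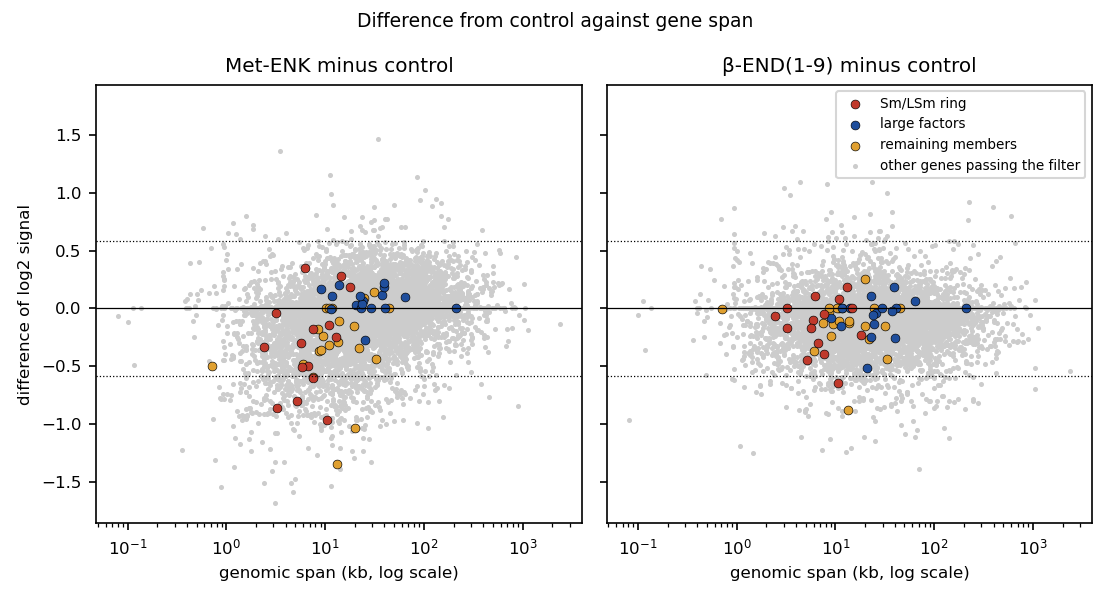
Difference of log2 signal from control against genomic span on a log scale, for Met-ENK (left) and β-END(1-9) (right), with ring genes in red, large factors in blue, remaining members in orange and all other genes passing the filter in grey; dotted lines mark 1.5-fold. In the Met-ENK plot short genes lie lower than long ones among members (Spearman 0.52) and among all genes (0.27), and in the β-END(1-9) plot the value over all genes is 0.00.

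Promoters are shown for members that were lower and members that were level, to set the letters before their starts side by side. The 250 bases before the annotated start were read from RefSeq sequence on GRCr8, where 53 of the 57 genes had an entry. Both strands were searched for exact letters of 4 motifs. The letters CCGGAAG are a core bound by ETS factors. The CCAAT box was searched by the letters of its name. For the box that places the start in some promoters the letters were TATAAA. For the SP1 family they were GGGCGG. Matches are in capitals, and neighbouring matches can overlap.
Zcrb1, GRCr8 chr7:126418013-126418262, minus strand: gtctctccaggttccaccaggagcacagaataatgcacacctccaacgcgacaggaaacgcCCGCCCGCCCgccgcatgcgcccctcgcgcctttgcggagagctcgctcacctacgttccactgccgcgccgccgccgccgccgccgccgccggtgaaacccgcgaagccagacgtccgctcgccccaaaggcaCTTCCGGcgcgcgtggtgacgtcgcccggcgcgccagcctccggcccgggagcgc
Snrpg, GRCr8 chr4:120369461-120369710, plus strand: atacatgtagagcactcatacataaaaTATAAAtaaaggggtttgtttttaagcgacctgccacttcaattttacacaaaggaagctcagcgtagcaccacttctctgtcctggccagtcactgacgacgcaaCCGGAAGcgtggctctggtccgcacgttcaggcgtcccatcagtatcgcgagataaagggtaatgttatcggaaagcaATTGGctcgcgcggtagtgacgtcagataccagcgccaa
Ppil1, GRCr8 chr20:7318782-7319031, minus strand: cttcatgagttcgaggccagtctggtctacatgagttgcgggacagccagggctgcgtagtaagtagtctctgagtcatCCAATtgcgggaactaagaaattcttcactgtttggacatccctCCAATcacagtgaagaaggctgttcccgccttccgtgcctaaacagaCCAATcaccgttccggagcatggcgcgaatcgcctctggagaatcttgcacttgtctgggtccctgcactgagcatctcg
Snrnp200, GRCr8 chr3:134881923-134882172, plus strand: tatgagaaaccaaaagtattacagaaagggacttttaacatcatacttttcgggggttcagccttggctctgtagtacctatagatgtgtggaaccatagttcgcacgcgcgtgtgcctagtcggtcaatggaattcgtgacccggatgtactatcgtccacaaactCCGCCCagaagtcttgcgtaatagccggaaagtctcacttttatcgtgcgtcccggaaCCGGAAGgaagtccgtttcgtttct
Prpf8, GRCr8 chr10:60829528-60829777, plus strand: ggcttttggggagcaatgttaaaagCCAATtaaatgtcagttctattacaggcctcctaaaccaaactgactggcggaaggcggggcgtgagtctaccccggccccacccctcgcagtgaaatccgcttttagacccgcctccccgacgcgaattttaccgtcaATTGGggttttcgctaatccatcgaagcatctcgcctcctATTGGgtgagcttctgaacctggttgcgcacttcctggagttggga
Zcrb1 and Snrpg, both lower with Met-ENK, hold an ETS match, and so does Snrnp200, whose signals were equal on all 3 arrays. Ppil1 and Prpf8 each hold 3 CCAAT matches, and the first was lower with Met-ENK whereas the second was level. The ETS letters were present in 34.0% of the 53 member promoters, 18.6% of the 6372 promoters of named genes passing the filter and 7.27% of all 33469 promoters in the table. Within the members they were in 5 of 15 ring genes and 5 of 18 large factors. SP1 letters were in 45.3% of member promoters, 61.8% of those of genes passing the filter and 30.5% of all promoters. CCAAT was in 32.1%, 36.5% and 34.0% and TATAAA in 3.77%, 5.995% and 12.9% in the same order. A match is a stretch of letters and not a measured site, and these shares carry no test.

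Other genes of the same pathway, from a list of 55 further spliceosome proteins, were counted in the same way. Of 44 that passed the filter, 1 was at least 1.5-fold lower with Met-ENK and 0 higher, with a median of 0, beside 6.02% lower and 0.692% higher of all genes. With β-END(1-9) against control 0 passed 1.5-fold, beside 2.27% lower and 0.559% higher. The gene lower with Met-ENK was Magoh, a core protein of the exon junction complex, with 12.83 with Met-ENK, 13.36 with β-END(1-9) and 13.67 in control. Its gene spans 7.38 kb. With Met-ENK the other genes of the list under 10 kb that passed the filter ran from -0.46 (Bcas2) to 0.10 (Zmat2). In a list of 17 genes for the SMN complex and its partners, which load Sm rings onto snRNAs, 16 passed the filter. With Met-ENK 2 were at least 1.5-fold lower, beside 6.02% of all genes, and with β-END(1-9) 3 were, beside 2.27%. Gemin8 had 7.69, 8.14 and 8.92 on the Met-ENK, β-END(1-9) and control arrays, differences of -1.23 and -0.77. Its Met-ENK signal was only just above the background top of 7.57, so the size of the first difference is uncertain. Gemin7 had 6.69 with either peptide and 7.36 in control, within the background range. Gemin4 had 9.63 with Met-ENK, 9.05 with β-END(1-9) and 9.64 in control, so that the β-END(1-9) array was the low one. Cytosolic ribosomal protein genes, another set of short genes, had a median of -0.48 with Met-ENK over the 63 that passed the filter. Of these, 62 were lower than in control, beside 60.0% of all genes with a span under 10 kb. At least 1.5-fold lower were 22 of the 63 ribosomal protein genes, beside 12.7% of all genes that short. Their median with β-END(1-9) was -0.13 with 0 past 1.5-fold lower, beside 2.27% of all genes.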

How the data were processed

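RNA from 3 cultures was measured on Affymetrix whole-transcript arrays. The authors deposited log2 signals, 1 per probe set, made with RMA in the Transcriptome Analysis Console and the Affymetrix Expression Console, per the submitters' processing notes. RMA corrects background, quantile-normalizes and summarises probes. The sources used here give no versions and no genome build. Of 23188 transcript clusters, the platform annotation names 1 gene for 15049, several for 0 and none for 8139. They stand for 15037 genes, and where a gene had more than 1 probe set, that of highest mean was kept. Span came from RefSeq on GRCr8 by Entrez identifier, for 15031 genes.

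Computed here were differences of log2 signals, counts past 1.5-fold and medians, with Python 3.11.15, pandas 2.3.3 and statsmodels 0.14.6 (lowess, fraction 0.4). The number of arrays limits the precision. With 1 array per group no test was run. The calculation was tested on simulated data. Genes named are members past 1.5-fold in any comparison, those with the highest mean or the lowest Met-ENK difference of their role list, and a fixed set of core members; further members were named after their values were seen. Of 72 symbols in the 10 role lists, 57 were measured. Members, lists and thresholds were chosen with earlier results of these data known. Alternatives were other scalings, no filter, a 2-fold limit, removal of the trend along span and, chosen after seeing the data, members above background only, counts without Lsm10 and a split by span.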

Additional observations from a re-analysis of the deposited data

How the results depend on the processing

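No replicates exist, so nothing could be left out and no paired analysis was possible because each group has 1 array. No member was at least 1.5-fold higher (0) in any comparison under any alternative run. At a 2-fold limit the members lower were 2 with Met-ENK and 0 with β-END(1-9) against control, and 1 between the peptides. Keeping only members above background on every array left 0 lower with β-END(1-9), and 5 with Met-ENK; Zcrb1 was left out there for its Met-ENK signal alone, as its β-END(1-9) and control signals lay above that range. Quantile normalization also left 5 with Met-ENK, without Snrpg (-0.55) and Bud31 (-0.52). The gap between ring genes and large factors with Met-ENK was -0.26 with the span trend removed and -0.39 for members under 10 kb against those over 20 kb; between the peptides that split gave -0.22 in place of -0.33. Medians of all members moved by less than 0.1, but that is close to the size of the Met-ENK median itself. It was -0.11 as deposited, -0.13 after median centring, -0.05 with the span trend removed and -0.01 after quantile normalization. The sign of the β-END(1-9) median turned (0.03 after quantile normalization), while the cause was not tested. The same scaling gave -0.30 for the Sm ring and 0.14 for the large factors with Met-ENK, 6 of 6 Sm genes staying lower, and 0.00 and 0.05 with β-END(1-9). Without Lsm10, 6 members passed 1.5-fold on the Met-ENK array and 1 on the β-END(1-9) array, each against control. Among the 50 recomputed counts 45 stayed within 1.5 times, and among 45 medians and gaps 43 moved by at most 0.1. Of 126 values for single genes 4 lost and 2 gained the 1.5-fold call. Many of these values could not move, so the tallies do not measure stability. Counts of members at least 1.5-fold higher were 0 throughout. No member had several probe sets (0), so averaging probe sets changed none of their signals. Leaving out the filter cannot change a single gene, and median centring cannot change a gap. Quantile normalization changed the share of lower genes among all genes past 1.5-fold to 78.8% with Met-ENK and 64.8% with β-END(1-9), against 89.7% and 80.3% as deposited. A split by protein length was not run, for want of protein sequences here.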
